A study of Mus musculus with 16 samples.

Results

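Nkd2, Rnf43, Znrf3, Apcdd1 and Lrp4, genes whose products restrain Wnt signalling, were followed in protrusions and cell bodies of mouse fibroblasts with and without knockdown of Apc. These 5 genes, of 13015 listed, were selected on earlier results of the same libraries because their RNA was higher after Apc knockdown, so their difference between siRNAs is described below without a test. NIH/3T3 cells, an established mouse fibroblast line, received either a control siRNA (siControl) or one directed at Apc (siAPC). After serum starvation they sat for 2 h on a membrane with 3.0 µm pores, with lysophosphatidic acid (LPA) below it for 1 h, and were fixed for 10 min in 0.3% paraformaldehyde. RNA was then taken from the protrusions under the filter (Ps) or from the cell bodies above it (CB). The 4 groups were siControl CB, siAPC CB, siControl Ps and siAPC Ps, with 4 libraries each, 16 in all. All groups shared the line, the starvation, the LPA and the fixation, and no group was untransfected. The methods list more than 1 sequence against Apc, and which of them these libraries received was not settled here, so the comparison stands for the siAPC treatment as labelled.

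Wnt ligands bind Frizzled receptors and their Lrp5 or Lrp6 co-receptors, which leads to inhibition of the destruction complex that marks beta-catenin for degradation. Apc is a scaffold of that complex, and without it beta-catenin accumulates and acts with Tcf and Lef factors on target genes. Several targets encode inhibitors of the pathway, which closes a negative feedback loop. Nkd2 is an intracellular protein of the Naked family that binds Dishevelled. Rnf43 and Znrf3 are related transmembrane E3 ubiquitin ligases that remove Frizzled receptors from the cell surface and that R-spondins counteract. Apcdd1 is a membrane glycoprotein that inhibits Wnt signalling at the cell surface. Lrp4 is a single-pass membrane receptor related to Lrp5 and Lrp6, binds the Wnt inhibitor sclerostin in bone, and serves as the agrin receptor at the neuromuscular junction.

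Nkd2 and Rnf43 went from no read in any siControl library to at least 11 reads in each siAPC library, so their start regions are shown. For each, the 250 bases before an annotated start (RefSeq, GRCm38.p6) are printed 5′ to 3′ on the strand of the gene, at chr13:73847632-73847881 (minus) and chr11:87662837-87663086 (plus):
Nkd2: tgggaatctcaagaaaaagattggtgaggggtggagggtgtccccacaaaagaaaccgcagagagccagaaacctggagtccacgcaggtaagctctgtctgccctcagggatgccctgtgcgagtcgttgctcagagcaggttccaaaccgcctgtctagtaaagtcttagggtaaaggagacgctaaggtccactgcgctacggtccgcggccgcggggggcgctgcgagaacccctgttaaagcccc
Rnf43: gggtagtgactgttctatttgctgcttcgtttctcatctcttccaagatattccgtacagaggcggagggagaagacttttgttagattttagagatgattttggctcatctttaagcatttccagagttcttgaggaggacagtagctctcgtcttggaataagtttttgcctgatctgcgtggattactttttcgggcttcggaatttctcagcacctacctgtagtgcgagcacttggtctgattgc
The Rnf43 window overlaps an exon of a noncoding transcript of the same gene. The core letters recognised by Tcf and Lef factors were searched as CTTTGAT and CTTTGAA on both strands, and had they been present they would stand in capitals. Neither was in these windows nor in a further Rnf43 window at chr11:87699647-87699896. CTTTGAT is in 3.21% of the 32851 promoter windows, CTTTGAA in 4.46% and either in 7.48%, and no match says only that these letters are not in these windows. The Nkd2 window had a GC content of 58.4% with 14 CpG, and the printed Rnf43 window 44.4% with 8 CpG, against medians of 52.4% and 6 over all windows.

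The libraries held 13466225 to 20296087 reads in listed genes. Levels are the deposited log2 CPM, where CPM is the number of reads, with 0.5 added, scaled to a common library size by the authors, and 3 reads correspond to a log2 CPM of -2.73 to -1.80 depending on the library. Apc itself was lower in every siAPC library than in every siControl library of its fraction. It was at 2.13, 2.59, 3.54 and 2.17 log2 CPM in siControl CB (replicates 1 to 4), and at 0.54, 1.42, 1.02 and 0.75 in siAPC CB. In Ps the values were 3.52, 3.73, 3.29 and 3.56 with siControl, and 1.63, 1.90, 1.87 and 1.33 with siAPC. The mean difference was -1.67 in CB (31.3% left) and -1.84 in Ps (27.9% left), with a two-sided exact permutation p of 0.0286 in each fraction, the smallest that 4 against 4 libraries allow. Defining fibroblast markers were listed for 11 of 11 genes. Their summed level was 38740 to 42080 CPM in siControl CB, 49190 to 54290 in siAPC CB, 23080 to 25550 in siControl Ps and 28230 to 30820 in siAPC Ps, so it moved with both the siRNA and the fraction, and its part in the results below was not tested. Of markers of other cells, 2 of 6 epithelial (7.71 to 10.7 CPM in sum), 1 of 6 immune, 1 of 4 endothelial (0 to 0.714 CPM) and 2 of 5 neural genes were listed. The immune gene was at 4.40 to 6.39 CPM in the CB and 3.54 to 4.27 in the Ps libraries. The neural sum was 14.5 to 19.4 CPM in siControl CB, 19.2 to 24.9 in siAPC CB, 20.4 to 31.0 in siControl Ps and 25.1 to 32.6 in siAPC Ps, and their part was likewise not tested. In these bulk libraries a higher level per cell and a larger share of expressing cells cannot be told apart.

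The genes lie apart in the genome, with coordinates from GENCODE M21 on GRCm38. Nkd2 spans chr13:73818534-73847631 on the minus strand, and Rnf43 and Znrf3 lie on the same chromosome at chr11:87662722-87735539 (plus) and chr11:5276324-5444847 (minus). Apcdd1 is at chr18:62922231-62961179 (plus) and Lrp4 at chr2:91457511-91513779 (plus). All 5 are annotated as protein coding, and no other gene overlapped an exon of any of them.

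With the control siRNA, neither Nkd2 nor Rnf43 gave a single read in any of 8 libraries, and with siAPC both were read in all 8. Nkd2 had 83, 91, 110 and 118 reads in siAPC CB (replicates 1 to 4), and 77, 73, 187 and 154 in siAPC Ps. In log2 CPM these were 1.95, 2.22, 2.51 and 2.75 in CB, and 2.30, 2.30, 3.30 and 3.23 in Ps. The 2 fractions overlapped, and replicates 3 and 4 were the high ones in each. The mean was 5.21 ± 1.25 CPM in siAPC CB (SD, n = 4) and 7.25 ± 2.71 CPM in siAPC Ps. A count of 0 allows up to 0.178 CPM in a single siControl CB library and 0.245 CPM in siControl Ps (3 reads in the library where they weigh most, counting error only). Against these limits Nkd2 was at least 29.2-fold higher with siAPC in CB and at least 29.5-fold higher in Ps.

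Rnf43 was the lowest of the 5. Its reads were 32, 25, 35 and 52 in siAPC CB, and 11, 11, 34 and 28 in siAPC Ps. The corresponding levels were 0.59, 0.38, 0.87 and 1.58 log2 CPM in CB, and -0.45, -0.37, 0.86 and 0.79 in Ps. As for Nkd2, replicates 3 and 4 were above replicates 1 and 2 in both fractions, and the fractions overlapped. The mean was 1.88 ± 0.75 CPM (SD, n = 4) in CB and 1.23 ± 0.59 CPM in Ps, which is at least 10.5-fold and at least 5.02-fold above the siControl limits. These bounds are set by the depth of the libraries and are not estimates of the fold change.

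**Figure D1:**
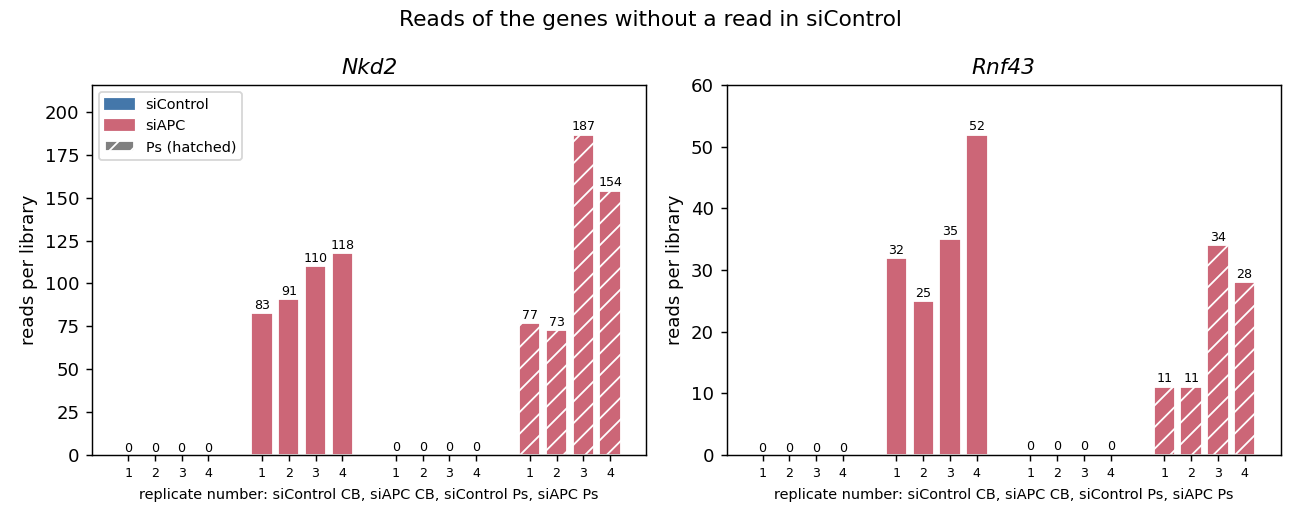
Reads of Nkd2 (left) and Rnf43 (right) in each of the 16 libraries (vertical axis, linear), by replicate number within siControl CB, siAPC CB, siControl Ps and siAPC Ps, with hatched bars for Ps. All 8 siControl libraries are at 0, and the siAPC bars run from 73 to 187 for Nkd2 and from 11 to 52 for Rnf43.

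This pattern was shared by few genes. Of all listed genes, 6 had 0 reads in every siControl library, and each of these 6 had more than 3 reads in every siAPC library. Beside Nkd2 (mean 6.23 CPM over the 8 siAPC libraries) and Rnf43 (1.56 CPM) they were the type II keratin Krt76 (7.73 CPM), the retinol transporter Stra6 (7.23 CPM), the alkaline phosphatase Alpl (0.753 CPM) and the keratin-associated protein Krtap1-5 (0.696 CPM). No gene showed the opposite pattern. The table kept only genes above a minimum level in at least 1 library, so a gene without reads in siControl could be listed through siAPC alone.

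Znrf3, the relative of Rnf43, was read in every library and differed least between siRNAs. It was at 3.59, 3.64, 3.59 and 3.24 log2 CPM in siControl CB, and at 3.93, 3.75, 3.73 and 3.96 in siAPC CB. In Ps the levels were 2.44, 2.81, 2.51 and 2.67 with siControl, and 2.83, 3.25, 3.05 and 3.06 with siAPC. The siAPC libraries lay just above the siControl libraries of their fraction without overlap. The difference in the limma fit was 0.33 in CB (SE 0.12, 1.25-fold) and 0.44 in Ps (SE 0.12, 1.36-fold). Without siControl CB replicate 4, the low library of its group, the CB difference was 0.24. By size of the increase Znrf3 stood 786th in CB and 706th in Ps among the 10292 genes with a mean log2 CPM of at least 1.

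The 2 ligases thus differed in where they started. In siControl all reads of the pair came from Znrf3. In siAPC, per kilobase of exon, Rnf43 made up 13.4% ± 3.9 (SD, n = 4) of their summed level in CB and 14.9% ± 6.2 in Ps. Of 7 other listed RING ligases, of the same transmembrane (PA-TM-RING) family or of the Znrf series, 0 passed limma's test in CB, where 7.52% of all genes were higher and 5.87% lower, so with 7 genes the count is near the background. In Ps, where 10.7% of all genes were higher and 11.2% lower, Rnf150 was higher by 0.63 with siAPC (limma adjusted p = 0.00325) and Rnf149 was at -0.33 (adjusted p = 0.0204), both named after their values were seen.

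Apcdd1 was the most abundant of the 5 in every group. It was at 6.27, 6.25, 6.02 and 6.15 log2 CPM in siControl CB, and at 7.61, 7.54, 7.71 and 7.79 in siAPC CB. In Ps it was at 5.15, 5.32, 5.50 and 5.45 with siControl, and at 6.94, 6.68, 7.29 and 7.42 with siAPC. The siRNA groups were far apart in both fractions, and within siAPC the replicates 3 and 4 were again the high ones. The increase was 1.49 on the log2 scale in CB (SE 0.12, 2.82-fold) and 1.73 in Ps (SE 0.12, 3.31-fold), the 46th and 42nd highest of the 10292 genes. It had 1291 to 1505 reads per siControl CB library and 3654 to 4227 per siAPC CB library.

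Lrp4 differed most between siRNAs among the 3 genes that were read in siControl. Its levels were 3.03, 3.35, 3.28 and 3.35 log2 CPM in siControl CB, and 5.02, 5.07, 5.22 and 5.30 in siAPC CB. In Ps they were 1.99, 2.16, 2.41 and 1.68 with siControl, and 4.06, 4.14, 4.31 and 4.33 with siAPC. No siAPC library came near a siControl library of its fraction. The difference was 1.90 in CB (SE 0.13, 3.73-fold) and 2.15 in Ps (SE 0.13, 4.44-fold), the 31st and 21st highest of the 10292 genes. Lrp8, the reelin receptor and a relative of Lrp4, was at -0.42 in CB (SE 0.13, limma adjusted p = 0.0296). Of the genes that act with Lrp4 at the neuromuscular junction or as its ligands, 4 of 9 were listed. Only Chrna1 among them, the alpha subunit of the muscle acetylcholine receptor, was called higher in CB (25%, against 7.52% of all genes, limma adjusted p = 8.21e-04). Its siControl CB mean of -3.85 log2 CPM was below the level of 3 reads. Chrna1 was also the only one called in Ps (25%, against 10.7% of all genes). Its siControl Ps mean of -4.75 was that of genes with 0 reads, so the Ps contrast is set by the 0.5 reads added. It too was named after its values were seen. The muscle markers that were listed, Des and Acta1, 2 of 4, also moved with the siRNA, at a sum of 9.88 to 13.2 CPM in siControl CB against 21.3 to 23.5 in siAPC CB and of 15.5 to 21.2 CPM in siControl Ps against 28.4 to 34.9 in siAPC Ps, and their part was not tested.

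**Figure D2:**
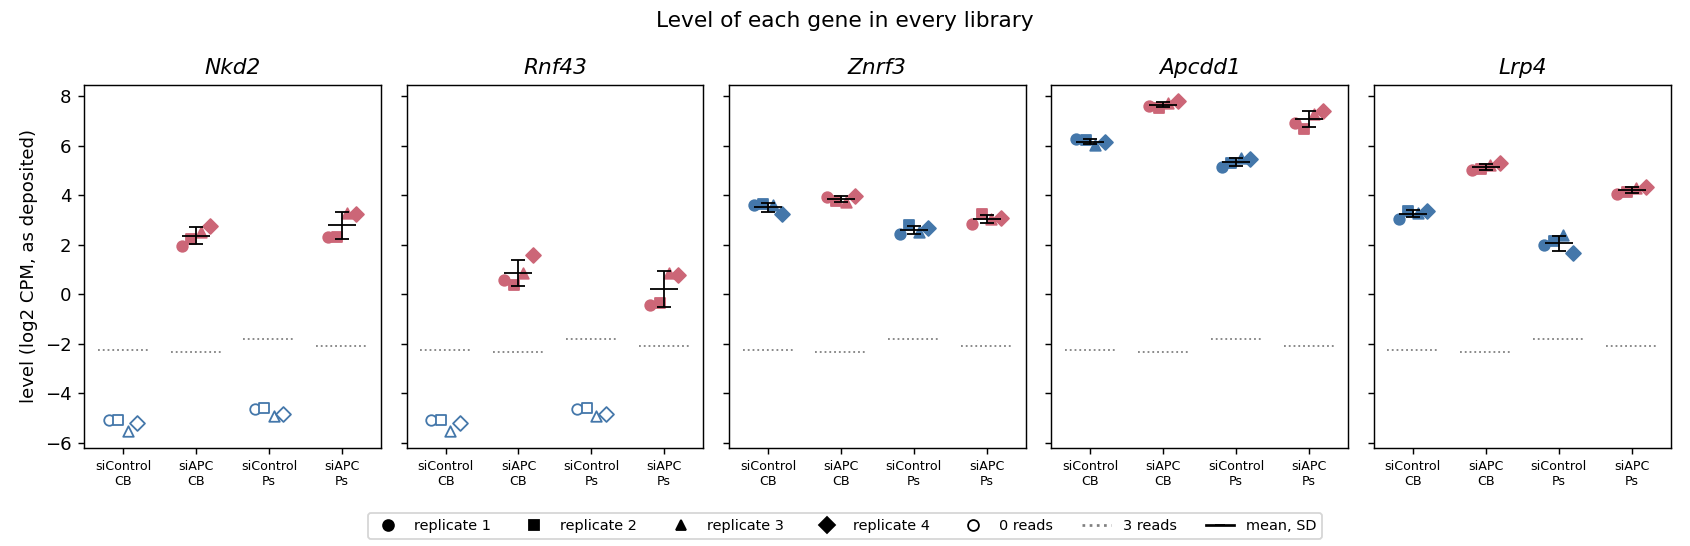
Level of each gene in every library (vertical axis, log2 CPM as deposited) in the 4 groups, with 1 symbol per replicate number, mean and SD in black, open symbols for 0 reads and a dotted line at 3 reads. For all 5 genes each siAPC library is above each siControl library of its fraction, by a narrow margin for Znrf3.

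In each of the 5 genes every siAPC library exceeded every siControl library, in CB and in Ps alike. Over all genes this held for 11.1% in CB, 10.9% in Ps and 6.95% in both. Since the genes were chosen for that contrast, nothing is read from the count. Per kilobase of exon, which allows levels to be compared between genes, the order in siControl CB was Apcdd1 (5.60 CPM per kb), Znrf3 (1.45) and Lrp4 (0.908). In siAPC CB it was Apcdd1 (15.8 CPM per kb), Lrp4 (3.40), Znrf3 (1.82), Nkd2 (1.08) and Rnf43 (0.286), and the ranges of no 2 neighbours overlapped. Lrp4 and Znrf3 thus changed places with the siRNA. In siAPC Ps the levels were 10.7 for Apcdd1, 1.76 for Lrp4 and 0.188 CPM per kb for Rnf43, with Nkd2 and Znrf3 in between. There the Nkd2 libraries (1.02 to 2.04) overlapped those of both Lrp4 and Znrf3, so Nkd2 was separated from neither, while the lowest Lrp4 library (1.59) was above every Znrf3 library. With the longest coding transcript as the length, the order was the same in each of these groups.

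All but Znrf3 varied together among the siAPC libraries. Nkd2, Rnf43, Apcdd1 and Lrp4 were higher in replicates 3 and 4 than in replicates 1 and 2 in both fractions, whereas Znrf3 was not, and Apc did not separate the replicates this way in either direction. Of all genes 10.7% had replicates 3 and 4 above 1 and 2 in both fractions. Over all genes, siAPC replicates 3 and 4 also stood together, with a chi-square of their reads per degree of freedom of 2.46 in CB and 2.97 in Ps. Between either of them and replicate 1 or 2 it was 5.45 to 7.46 in CB and 6.57 to 16.6 in Ps. Between replicates 1 and 2 it was 3.3 in CB but 6.57 in Ps, so in Ps these 2 formed no group of their own. Over the 8 siAPC libraries, as deviations from the group mean, the correlation was 0.948 between Nkd2 and Rnf43, 0.946 between Nkd2 and Lrp4, 0.929 between Rnf43 and Lrp4, 0.886 between Nkd2 and Apcdd1, 0.879 between Rnf43 and Apcdd1 and 0.767 between Apcdd1 and Lrp4. Those of Znrf3 with the other 4 ran from -0.127 to 0.25. The points are 8 libraries that share 4 replicate numbers and their depth and base composition, so these are descriptions. For each library, its deviation from the mean of the other libraries of its group was correlated with GC content across genes. This Spearman correlation was also higher in siAPC replicates 3 and 4 than in 1 and 2, in both fractions. It was 0.048, -0.586, 0.535 and 0.155 in CB (replicates 1 to 4), and -0.039, -0.645, 0.432 and 0.504 in Ps. The part of GC content in the pattern was not tested.

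Over all 16 libraries, the genes whose levels followed the members most closely (Pearson correlation among 9603 candidates, as a description) were Selenbp1 (0.997), Cdh26 (0.993) and Pmepa1 (0.993) for Nkd2. Those for Rnf43 were the same 3 genes, Cdh26 (0.991), Pmepa1 (0.990) and Selenbp1 (0.988), and both members are at 0 reads in 8 of the points. Apcdd1 was followed by the Wnt ligand Wnt9a (0.989), St6gal1 (0.988) and Tnfsf9 (0.985), and Lrp4 by Tnfsf9 (0.990), Pla1a (0.987) and Prelp (0.982). Znrf3 was followed by the centrosomal Pcnt (0.965), Ltbp1 (0.964) and the BMP receptor Acvr1 (0.960), with none in common with the other 4.

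The contrast between protrusions and cell bodies, averaged over both siRNAs, does not use the difference that chose the genes and was tested. Znrf3, Apcdd1 and Lrp4 were all lower in Ps. The level in Ps was 55.4% of that in CB for Znrf3 (log2 -0.85, SE 0.084, limma adjusted p = 3.03e-08), 61.6% for Apcdd1 (log2 -0.70, SE 0.086, adjusted p = 6.50e-07) and 47.7% for Lrp4 (log2 -1.07, SE 0.091, adjusted p = 3.90e-09). In each of the 3 genes all 4 same-numbered pairs of either siRNA pointed down. In siControl the replicate numbers did not pair CB with Ps libraries (correlation of deviations over 0.1 in 2 of 4). There the pairs are by number only. Of all genes, 36.1% were lower and 35.7% higher in Ps by the same test, so a call as such is common, and the median difference over all genes was 0.005 with 5% of genes below -1.04. In the main fit Lrp4 thus lay just below that 5% point, and Znrf3 and Apcdd1 were within the middle 90%. Without siControl Ps replicate 4 Lrp4 was at -1.01, so its place outside the middle 90% rests on a small margin. After a loess correction for GC content and length the differences kept their sign and their call but shrank to -0.51 for Znrf3, -0.44 for Apcdd1 and -0.47 for Lrp4. The mitochondrial share of reads also moved with the fraction, from 1.37 to 1.95% in the CB libraries to 2.18 to 4.16% in the Ps libraries, and its part was not tested.

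Nkd2 and Rnf43 could be compared between fractions in siAPC only. Nkd2 was 0.43 higher in Ps on the log2 scale (SE 0.33, pairs from 0.08 to 0.79), with all 4 pairs above 0. Rnf43 was at -0.65 (SE 0.43, pairs from -1.03 to -0.01), with all 4 pairs below 0. These estimates were given no test, and the groups overlapped for both genes. Leaving out 1 library moved Nkd2 to between 0.26 (without siAPC Ps replicate 3) and 0.59, and Rnf43 to between -0.86 (without siAPC Ps replicate 3) and -0.40 (without siAPC CB replicate 4). The loess correction moved Nkd2 to 0.81 (SE 0.31) and Rnf43 to -0.10 (SE 0.41).

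**Figure D3:**
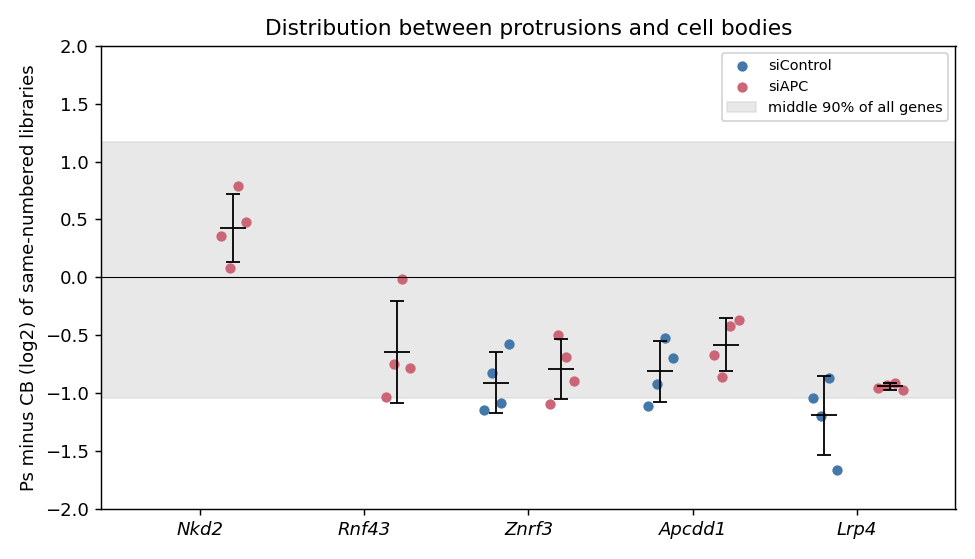
Ps minus CB on the log2 scale for the 4 same-numbered library pairs of each siRNA (points), with mean and SD in black and the middle 90% of all genes shaded. Znrf3, Apcdd1 and Lrp4 lie below 0 in every pair, while Nkd2, shown for siAPC only like Rnf43, lies above 0.

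One question of the study was whether knockdown of Apc changed how RNAs are distributed between fractions. Within siControl, Ps minus CB was -0.91 for Znrf3, -0.81 for Apcdd1 and -1.19 for Lrp4, and within siAPC it was -0.80, -0.58 and -0.94. The difference of these differences was 0.11 for Znrf3 (SE 0.17), 0.23 for Apcdd1 (SE 0.17) and 0.25 for Lrp4 (SE 0.18). Single libraries moved these values over 1.5 times, for Znrf3 to between 0.05 (without siAPC Ps replicate 2) and 0.20 (without siControl CB replicate 4), for Apcdd1 to between 0.12 (without siAPC Ps replicate 4) and 0.36 (without siAPC Ps replicate 2) and for Lrp4 to between 0.12 (without siControl Ps replicate 4) and 0.37 (without siControl Ps replicate 3). Scaling to total reads gave 0.26 (SE 0.19) for Znrf3, 0.37 (SE 0.18) for Apcdd1 and 0.39 (SE 0.20) for Lrp4. The difference was not tested for the members, being built from the contrasts that chose them. Of all genes, 0% had a Ps/CB ratio higher with siAPC by limma's interaction test (adjusted p below 0.05) and 0.0231% a lower one. The study asked this of Ps-enriched RNAs only, with its own cutoffs on the difference and its p-value. It reported a group of RNAs that depend on APC, and measured some of them again without amplification. The shares here are over all genes at another threshold and say nothing on that group.

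Members were then set beside the rest of the pathway, taken from lists of target genes, inhibitors, receptor components and destruction complex proteins. Of 120 such genes other than the 5, 74 were listed, and of these 18 were higher (24.3%) and 5 lower (6.76%) with siAPC in CB, against 7.52% higher and 5.87% lower of all genes. In Ps 22 were higher (29.7%) and 3 lower (4.05%), against 10.7% and 11.2% of all genes. The split in Ps depended on the processing. With scaling to total reads 28 pathway genes were higher and 0 lower, against 22.6% and 4.23% of all genes, and after a loess correction for GC content and length 12 were lower, against 21.5% of all genes. In both fractions 17 of the 74 were higher and 2 lower, against 6.42% and 4.34% of all genes. The median difference was 0.03 in CB and 0.05 in Ps, against -0.04 and -0.02 over all genes. None passed limma's interaction test, and 7 of 74 had an unadjusted interaction p below 0.05, as had 492 (3.78%) of all 13015 genes. The lists were written with earlier results of these libraries known and are no independent support.

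Among the 27 listed targets of the pathway, 9 rose and 2 fell in CB (33.3% and 7.41%, against 7.52% and 5.87% of all genes), while in Ps 10 rose and 1 fell (37.0% and 3.70%, against 10.7% and 11.2%). Cyclin D1 (Ccnd1), which drives entry into S phase, was 4.93-fold higher in CB (log2 2.30, SE 0.17, limma adjusted p = 2.35e-08) and 4.53-fold in Ps, more than either Lrp4 or Apcdd1. The gap junction protein Gja1 was 2.63-fold higher in CB (adjusted p = 4.72e-07) and 3.91-fold in Ps, and the matricellular protein Wisp2 was 2.35-fold higher in CB (adjusted p = 2.11e-08) and 2.42-fold in Ps. The membrane protease Mmp14 (log2 -0.33, adjusted p = 0.00297) and the transcription factor Jun (-0.32, adjusted p = 0.0209) were lower in CB. The factors Tcf7 (0.10, adjusted p = 0.612) and Lef1 (0.46, adjusted p = 0.617) did not pass the test, and Lef1 was near the limit of detection. The targets Axin2, Nkd1, Notum, Lgr5, Dkk1 and Sp5 were looked for but are not among the listed genes, so no level is given for them.

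Of 18 other inhibitors of the pathway, 5 rose and 2 fell in CB (27.8% and 11.1%, against 7.52% and 5.87% of all genes), and 5 rose and 1 fell in Ps (27.8% and 5.56%, against 10.7% and 11.2%). Trabd2b, a membrane metalloprotease that cleaves Wnt ligands, was 2.38-fold higher in CB (log2 1.25, SE 0.12, limma adjusted p = 9.75e-07) and 2.02-fold in Ps. Igfbp4, which binds insulin-like growth factors and inhibits Wnt at its receptors, was 1.74-fold higher in CB (adjusted p = 1.72e-06) and 1.72-fold in Ps. Dkk3 and Dact2 were also called higher and Draxin lower in CB, all at a mean log2 CPM below 1 and named after their values were seen. The Groucho co-repressors went in opposite directions, Tle3 at 0.48 (adjusted p = 0.00492) and Tle2 at -0.45 (adjusted p = 0.00639) in CB. Of 16 receptor components, the substrates of Rnf43 and Znrf3 among them, 3 rose and 0 fell in CB (18.8% and 0%, against 7.52% and 5.87% of all genes). In Ps 6 rose and 1 fell (37.5% and 6.25%, against 10.7% and 11.2% of all genes). The Wnt receptors Fzd1 (1.51-fold in CB, adjusted p = 0.00415, and 1.99-fold in Ps) and Fzd2 (1.38-fold in CB, adjusted p = 3.80e-04, and 1.66-fold in Ps) rose, and so did the co-receptor Ryk in CB (log2 0.18, adjusted p = 0.0219). The co-receptor Lrp6 was at -0.20 in CB (adjusted p = 0.413), and Lrp5 was at -0.22 in CB (adjusted p = 0.191) and at -0.36 in Ps, where it passed (adjusted p = 0.0178).

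Of 15 destruction complex genes without Apc, 1 rose and 1 fell in CB, a share of 6.67% each way and so near that of all genes (7.52% and 5.87%). In Ps 1 rose and 0 fell (6.67% and 0%, against 10.7% and 11.2% of all genes). The casein kinase Csnk1e was higher by 0.35 in CB (limma adjusted p = 0.0165) and by 0.29 in Ps (adjusted p = 0.0314), and the tankyrase Tnks2 was at -0.30 in CB (adjusted p = 0.0458). The RNA of beta-catenin, Ctnnb1, was at 0.11 in CB (adjusted p = 0.251) and at -0.11 in Ps (adjusted p = 0.204).

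**Figure D4:**
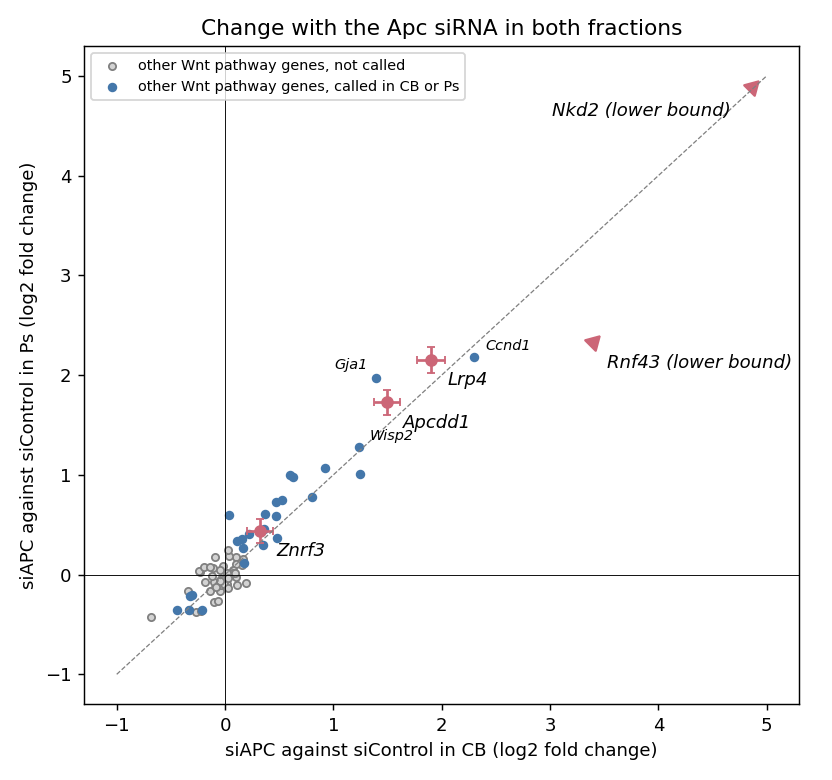
Difference of siAPC from siControl (log2) in CB (horizontal) and Ps (vertical) for Znrf3, Apcdd1 and Lrp4 (red, with SE), for Nkd2 and Rnf43 as lower bounds (red triangles) and for 69 other pathway genes with a mean log2 CPM of at least 1, of which 26 passed the test in CB or Ps (blue). Most lie near the dashed line of equal change, and Ccnd1 lies above Lrp4 in both fractions.

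Across fractions, 43 of the 74 pathway genes were lower in Ps and 13 higher, against 36.1% and 35.7% of all genes. With scaling to total reads 55 were lower and 4 higher, against 48.8% and 23.0% of all genes. After the loess correction 33 of 70 were lower and 19 higher, against 31.0% and 33.5% of all genes. Among receptor components the share was higher still, with 13 of 16 lower and 1 higher, and 10 of 15 lower and 1 higher after the loess correction. Lrp5, for example, was at -1.14 in Ps against CB averaged over siRNAs (SE 0.073, limma adjusted p = 6.88e-11), beside -1.07 for Lrp4. Lower levels in Ps were thus found for Znrf3, Apcdd1 and Lrp4 and for most measured receptor components alike.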

How the data were processed

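RNA was measured in 16 stranded libraries of NIH/3T3 cells, in 4 groups of 4 taken from the labels. Per the submitters' notes and methods, the authors used STAR (2.4.2a) on mm10 with GENCODE models and Rsubread for gene counts, and deposited limma-voom log2 CPM (limma 3.26.1) for 13015 genes that passed their cutoff on low levels. Whether counting used strand is not given in the sources used here. The deposited log2 values were inverted (lowest value of a library taken as 0 reads, 0.5 reads added), which gave whole reads, within 0.01 reads, for 100% of 208240 values, and hence the depths and read numbers.

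All genes were fitted with limma 3.58.1 in R 4.3.3 (lmFit, eBayes with trend, 1 mean per group), with Benjamini-Hochberg adjustment over all genes and a call at an adjusted p below 0.05. The members and the gene lists were chosen with earlier results of these data known. The members were chosen for the siRNA contrast, so that contrast, Ps/CB within a siRNA and the interaction are given for them as estimates with SE and no p. Ps against CB averaged over siRNAs, which is orthogonal to it, was tested. For Nkd2 and Rnf43, with 0 reads in siControl, every fitted contrast with siControl is set by the 0.5 reads added and was left out. Genes of the lists were named by a rule: of those with a mean log2 CPM of at least 1, up to 3 with the highest and 3 with the lowest called change in CB, and in addition a set of classical pathway genes wherever measured. The counts of 1 further list are not reported here. On simulated data the fit was checked for recovery of known changes. The methods call the replicates separate, and p-values measure the spread between these libraries. Intervals and limits from reads cover counting error only. Alternatives were the replicate block, each library left out, the library with the lowest GC correlation of each group left out, and total-read scaling. Libraries with a positive GC correlation were kept in that setting on GC. Further ones were quantile normalization, voom and array weights, 2 reads added and a filter on low levels. The last were a loess correction for GC content and length (12426 genes with a value), fits of the groups compared only and a fold threshold.

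Replicate numbers paired the siAPC CB and Ps libraries (correlation of deviations over 0.1 in 4 of 4 pairs, mean 0.502) and the siControl Ps and siAPC Ps libraries (4 of 4, mean 0.345), but not siControl CB and Ps (2 of 4) or the CB libraries across siRNAs (2 of 4), and the main fit has no block.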

Additional observations from a re-analysis of the deposited data

Results flagged for a closer look

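Znrf3 in siControl CB replicate 4 was at 3.244 log2 CPM, far from the other 3 libraries of its group, which lay between 3.591 and 3.637. The gap to the nearest was 0.883 of the whole range, above Dixon's 95% critical value for 4 samples. With 20 sets of 4 libraries tested, chance alone flags about 1 in 20. No difference of the siRNA effect between fractions passed limma's interaction test in the 93 list genes tested.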

How the results depend on the processing

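No alternative turned the direction of a result on Nkd2, Rnf43, Znrf3, Apcdd1 or Lrp4. The only results on members with a call were Ps against CB for Znrf3, Apcdd1 and Lrp4, and none of these calls was lost. Over 25 alternatives Ps against CB averaged over siRNAs ran from -1.08 to -0.51 for Znrf3, from -0.92 to -0.44 for Apcdd1 and from -1.29 to -0.47 for Lrp4, with the highest adjusted p at 0.0012, each lowest with scaling to total reads and highest with loess. Scaling to total reads shifts the median of all genes by -0.226 in that contrast and by 0.164 in siAPC against siControl in Ps. The siRNA difference ran from 0.24 to 0.60 for Znrf3, from 1.44 to 1.89 for Apcdd1 and from 1.77 to 2.31 for Lrp4. The bounds without 1 library ran from 26.0 to 32.7-fold for Nkd2 and from 4.27 to 11.6-fold for Rnf43.

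Counts of pathway genes with lower levels in siAPC were unstable. In CB the 5 lower genes became 3 with scaling to total reads, 8 with loess and 1 with a fold above 1.5, and 2 to 5 without 1 library (2 without siControl CB replicate 4 or siAPC CB replicate 4, and 3 without siControl CB replicate 1, any other siAPC CB replicate, siControl Ps replicate 4 or siAPC Ps replicate 3). In Ps the 3 lower genes became 5 with the replicate block, 0 with scaling to total reads, 8 with array weights, 12 with loess, 0 with a fold above 1.5, and 1 to 4 without 1 library (1 without siControl Ps replicate 3). The counts of higher genes became 10 in CB (from 18) and 14 in Ps (from 22) with a fold above 1.5. Among targets, the 9 higher in CB became 5 with a fold above 1.5 and 7 with loess. The 2 targets lower in CB became 0 with a fold above 1.5 and 1 with scaling to total reads. They also became 1 without siControl CB replicate 4, siAPC CB replicate 2 or siAPC CB replicate 4. The share of all genes called lower moved with these settings too. In CB it went from 5.87% to 5.12% with scaling to total reads and 14.5% with loess. Without siControl CB replicate 4 it was 3.68%, and without siAPC CB replicate 4 it was 3.28%. In Ps it went from 11.2% to 13.5% with the replicate block and 4.23% with scaling to total reads. With array weights it was 17% there, and with loess 21.5%. The cause of these moves was not tested. The replicate block changed no call of Znrf3, Apcdd1 or Lrp4. With it 23 pathway genes were higher in Ps, and 3 in place of 2 targets were lower in CB. In Ps 11 targets were higher and 2 lower with it, in place of 10 and 1.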

Other observations

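The nearest listed gene on either side of each member was taken, so genes that are not listed may lie between. Of these 10 genes, 3 were called higher with siAPC in CB and 3 in Ps, with 0 called lower in either. Of all genes, 7.52% (CB) and 10.7% (Ps) were higher. Among them, Slc12a7, a potassium chloride cotransporter whose gene ends 1780 bases from Nkd2, was higher with siAPC by 0.80 in CB (SE 0.14, limma adjusted p = 4.78e-04) and by 0.91 in Ps (adjusted p = 8.21e-05). Trip13, on the other side of Nkd2, was at 0.44 in CB (adjusted p = 0.0609) and at 0.59 in Ps (adjusted p = 0.00902). Next to Lrp4, 1110051M20Rik was higher by 0.43 in CB (adjusted p = 5.33e-05) and by 0.40 in Ps. Supt4a, at 2013 bases from Rnf43, was at 0.10 in CB (adjusted p = 0.395) and at 0.16 in Ps (adjusted p = 0.106). Mtmr4 beside Rnf43, Kremen1 and Xbp1 beside Znrf3, Napg beside Apcdd1 and Ckap5 beside Lrp4 did not pass the test in either fraction. Spink13, on the other side of Apcdd1 and 180844 bases away, was at 2.19 in CB (SE 0.67, adjusted p = 0.0343) and at 1.75 in Ps (adjusted p = 0.0685), from a mean log2 CPM of -2.37. These neighbours were looked up after the members were chosen and are given as values.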
